A study of Homo sapiens with 4 samples.

Results

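The HSP70 family chaperones described here are 10 genes, HSPA6, HSPA7, HSPA1A, HSPA1B, HSPA1L, HSPA2, HSPA8, HSPA5, HSPA13 and HSPA9, out of 57820 gene rows in each count file. They were chosen by name with the measured counts of SGSS05-NS against DMSO in these libraries already known, so their differences in that contrast are given as a description with no test. Gene identifiers were matched to symbols with GENCODE on hg19 (GRCh37), and all 10 were found. The cells were SY5Y, an established human neuroblastoma line that the labels give as MYCN wild type. One group received DMSO, the solvent, and the other a compound that the labels name SGSS05-NS. The paper describes this RNA-seq with SGSS05-NS3, an inhibitor of the lysine methyltransferase SETD8. Per the paper, SGSS05-NS3 also inhibited some other methyltransferases at low micromolar concentrations. The discussion of the paper lists SGSS05-NS as a compound of the same series, so the label could mean a different one. That both names mean 1 compound here is assumed. RNA was taken 12 h after treatment, with 2 libraries per group. The labels give a dose of 3 μM, as does a figure legend of the paper for SY5Y cells, while its methods give a lower one. The methods call the replicates independent and biological, and the labels do not say whether they were separate cultures. All libraries are of 1 cell line, and its response stands for no other line.

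HSP70 proteins are ATP-driven chaperones. They bind exposed hydrophobic stretches of unfolded proteins, DNAJ (HSP40) co-chaperones deliver the substrate and trigger ATP hydrolysis, and nucleotide exchange factors such as the BAG and HSP110 proteins release it again. HSPA1A, HSPA1B and HSPA6 are the stress-inducible cytosolic members, transcribed after heat or proteotoxic stress when the transcription factor HSF1 binds heat shock elements in their promoters. HSPA8 (HSC70) is the constitutive cytosolic member, HSPA5 (BiP, GRP78) folds proteins in the endoplasmic reticulum (ER), HSPA9 (mortalin) drives import and folding in mitochondria, HSPA13 is a microsome-associated member, and HSPA1L and HSPA2 are best known from testis.

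Gene fragments per library were between 21463105 and 25350204. The 2 libraries of a group differed by more than sampling noise, their chi-square divided by its degrees of freedom being 8.76 with DMSO and 11.8 with SGSS05-NS. Of 10 sympathoadrenal markers, TH, which encodes tyrosine hydroxylase, was at 0 to 2 fragments, and the other 9 were well counted. The summed level of the 10 was 2946 and 3164 CPM (counts scaled to library size) with DMSO and 1885 and 1663 with SGSS05-NS, and 6 of the 10 fell (edgeR quasi-likelihood test, Benjamini-Hochberg adjusted p under 0.001, the threshold used throughout). Over all 16468 genes tested, 8.14% fell. The summed level of 5 markers of other cells (a sixth, PECAM1, was not found by symbol) was 2.63 and 2.91 CPM with DMSO and 4.73 and 6.04 with SGSS05-NS. The leukocyte marker PTPRC and the liver marker ALB were at 0 or 1 fragment, and none of the 5 passed the threshold, CD14 being at 0.332 CPM with DMSO and 1.18 with SGSS05-NS and EPCAM at 1.53 and 2.98. The part of these shifts in the values of the HSP70 genes was not tested. In bulk RNA, fewer cells of a kind and less RNA per cell cannot be told apart.

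Sequences of 2 kinds are shown, promoter elements and stretches of near-identical copies. No link between an element and a level was tested. The promoters of HSPA6 and HSPA1A are shown because both genes are called stress-inducible and yet were counted at very different levels. Each is the 250 bases before the RefSeq start (table of GRCh38.p14, matched here without a mismatch to GRCh37), 5′ to 3′. Capitals mark exact matches to the heat shock elements searched, and imperfect units are not marked. HSPA6 lies at chr1:161494080-161494329 on the plus strand and HSPA1A at chr6:31783070-31783319 on the plus strand.
HSPA6: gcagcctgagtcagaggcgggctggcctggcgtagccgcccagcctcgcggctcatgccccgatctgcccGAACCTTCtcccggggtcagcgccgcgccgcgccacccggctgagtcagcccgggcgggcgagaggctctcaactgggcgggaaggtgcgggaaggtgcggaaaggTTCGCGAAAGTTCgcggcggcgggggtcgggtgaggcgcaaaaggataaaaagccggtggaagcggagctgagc
HSPA1A: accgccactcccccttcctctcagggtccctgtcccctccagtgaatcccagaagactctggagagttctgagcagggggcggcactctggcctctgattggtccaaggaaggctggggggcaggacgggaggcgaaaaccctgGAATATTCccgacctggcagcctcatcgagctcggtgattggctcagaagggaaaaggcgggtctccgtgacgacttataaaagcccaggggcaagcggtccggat

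The promoters of HSPA8 and HSPA5 share bases with annotated exons of longer transcripts, so 30 bases around their elements are shown instead, on the minus strand. The HSPA8 windows are at chr11:122933053-122933082 and chr11:122932878-122932907, and the HSPA5 window is at chr9:128003664-128003693. The capitals mark 3 adjoining heat shock units in HSPA8 and the ER stress response element (ERSE) in HSPA5.
HSPA8, distal: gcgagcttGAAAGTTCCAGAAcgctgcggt
HSPA8, proximal: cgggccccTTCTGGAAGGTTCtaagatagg
HSPA5: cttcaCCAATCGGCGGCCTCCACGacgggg

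Motifs were searched on both strands in the 250 bases before the start of 27305 genes. The 3-unit element, GAANNTTC followed by NN and GAA, was in HSPA6 once and in HSPA8 at 2 places, and in 0.439% of all promoters. The 2-unit element GAANNTTC, which overlaps the longer one, was in 5.85% of all promoters. It was found without an exact match to the longer one in HSPA1A, HSPA1B and HSPA1L, at 106 bases before the start in HSPA1A. HSPA6 held a further one, the first capitals of its sequence above. HSPA1L and HSPA1A are transcribed away from each other, and their windows hold the same copy of that element. The promoters of HSPA1A and HSPA1B were identical at 93.6% of aligned positions. The ERSE, CCAAT and CCACG with 9 bases between them, was in HSPA5 and in 0.0806% of all promoters. HSPA2, HSPA13 and HSPA9 held neither kind of element in this window, and HSPA7 had no entry in the table. For HSPA2, HSPA13 and HSPA9 the window lies inside the annotated span of the gene, and bases before that span were not searched. Only exact matches to these letters were searched, so heat shock units that depart from them were missed in every promoter. A match of letters is not a measured binding site.

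HSPA6 encodes HSP70B′, a strictly stress-inducible cytosolic chaperone. The gene is a single exon at chr1:161494330-161496684. It was counted at 1 and 0 fragments in the DMSO libraries and at 6238 and 9408 in the SGSS05-NS libraries. In CPM this was 0.0399 and 0 against 281 and 400.0, with a mean of 340.5 ± 84.1 (SD, n = 2) after SGSS05-NS. The groups did not overlap, and HSPA6 moved from the edge of detection to a well-counted level. With 1 fragment as its base, the ratio of scaled counts was 16584, with an exact binomial 95% interval of 2976 to 655066 that covers counting error only. The fitted log2 fold change was 13.68 ± 0.35 (SE), and it depended on that single fragment, at 15.93 without DMSO replicate 1 and 12.86 without DMSO replicate 2. Both values lie further from 13.68 than the SE, which does not cover this dependence.

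HSPA7 is an unprocessed pseudogene at chr1:161576081-161578007, with the Fc receptor genes FCGR3A and FCGR2C between it and HSPA6. It was counted at 0 fragments in both DMSO libraries and at 37 and 59 in the SGSS05-NS libraries, or 1.67 and 2.51 CPM. Against a floor of 3 counts over the DMSO group, HSPA7 was 33.9-fold higher, with no allowance for counting error in the treated libraries. Per 100 fragments of HSPA6 there were 0.593 and 0.627 of HSPA7, so the pseudogene stood at a similar small share of HSPA6 in both treated libraries. The sequences of both are near-identical, and whether some fragments counted for HSPA7 came from HSPA6 was not tested.

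HSPA1A and HSPA1B are the major inducible HSP70 genes, single exons in the major histocompatibility complex at chr6:31783320-31785723 and chr6:31795515-31798031. HSPA1A was counted at 1 and 1 fragments with DMSO and at 6 and 22 with SGSS05-NS. HSPA1B was counted at 0 and 0 with DMSO and at 1 and 12 with SGSS05-NS. Both were higher in each treated library and both stayed under 1 CPM. The ratio of scaled counts was 14.8 for HSPA1A (exact binomial 95% interval 3.74 to 129). Against the floor of 3 counts HSPA1B was 4.59-fold higher, again with no allowance for counting error in the treated libraries. Both had too few counts to enter the fit, and the treated libraries differed from each other by several fold.

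HSPA1L, a testis member encoded beside HSPA1A on the opposite strand at chr6:31777396-31783060, was counted at 1 and 1 fragments with DMSO and 4 and 3 with SGSS05-NS. The ratio was 3.71 with an interval of 0.706 to 36.6, which includes no difference. HSPA2, the other testis member, at chr14:65002623-65012891, was counted at 122 and 96 fragments with DMSO and 162 and 163 with SGSS05-NS. Its log2 fold change was 0.66 ± 0.18 (SE), at 4.49 ± 0.533 CPM against 7.11 ± 0.261 CPM (SD, n = 2), and the groups did not overlap.

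**Figure D1:**
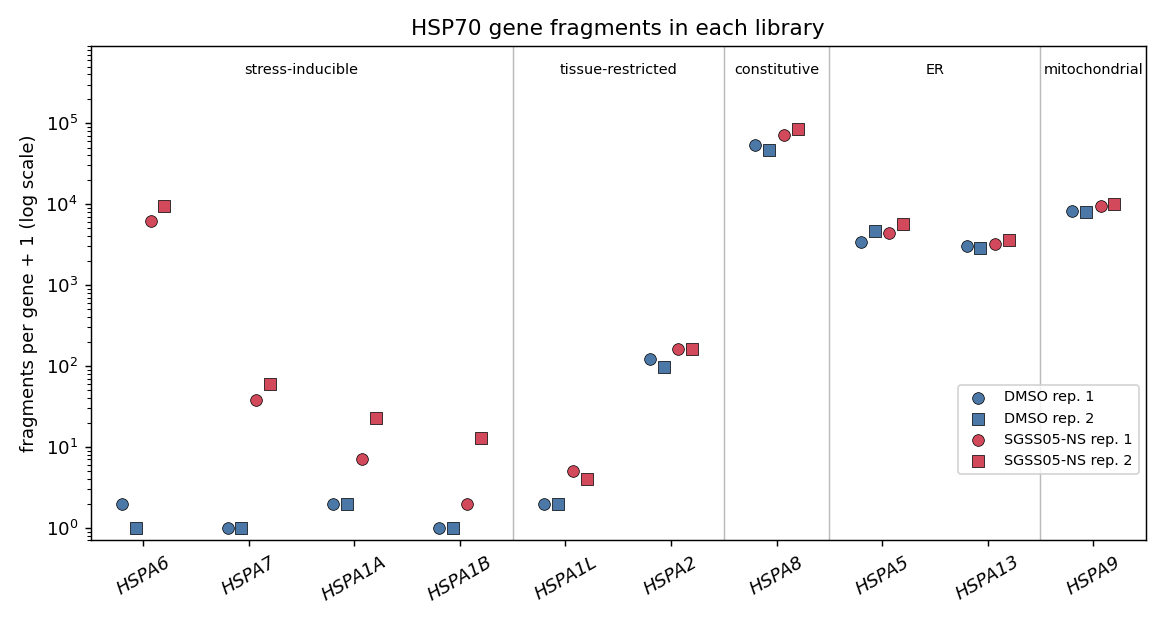
Fragments per gene plus 1 (y axis, log scale) for the 10 HSP70 genes (x axis, grouped by class); each point is 1 library, blue for DMSO and red for SGSS05-NS, circles for replicate 1 and squares for replicate 2. HSPA6 goes from 0 or 1 fragments with DMSO to 6238 and 9408 with SGSS05-NS, while HSPA1A and HSPA1B stay at or below 22.

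HSPA8, the constitutive cytosolic chaperone that also uncoats clathrin vesicles, has 9 exons at chr11:122928197-122933938. It was counted at 53050 and 46625 fragments with DMSO and 71049 and 85882 with SGSS05-NS. Its level was 2055 ± 83.9 CPM against 3426 ± 318 CPM (SD, n = 2), and the log2 fold change was 0.74 ± 0.11 (SE). The groups did not overlap, and although its fold was small beside that of HSPA6, its gain in CPM was the largest of the 10 genes.

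HSPA5, the ER member, has 8 exons at chr9:127997132-128003661. It was counted at 3394 and 4659 fragments with DMSO and 4391 and 5750 with SGSS05-NS, or 135 and 199 CPM against 198 and 244. The groups overlapped, and HSPA5 was the one member of the 10 for which they did. The log2 fold change of 0.40 ± 0.16 (SE) rested on single libraries, at 0.69 without DMSO replicate 2 and 0.14 without DMSO replicate 1.

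HSPA13 has 5 exons at chr21:15743436-15755805 and was counted at 3064 and 2901 fragments with DMSO and 3186 and 3634 with SGSS05-NS. Its log2 fold change was 0.28 ± 0.09 (SE), at 123 ± 1.45 CPM against 149 ± 7.74 CPM (SD, n = 2). HSPA9, the mitochondrial member, has 17 exons at chr5:137889445-137911364 and was counted at 8221 and 7934 fragments with DMSO and 9557 and 10109 with SGSS05-NS. Its log2 fold change was 0.37 ± 0.09 (SE), at 334 ± 8.45 CPM against 430.2 ± 0.574 CPM. Neither gene's groups overlapped, and both differences were smaller than that of HSPA8.

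**Figure D2:**
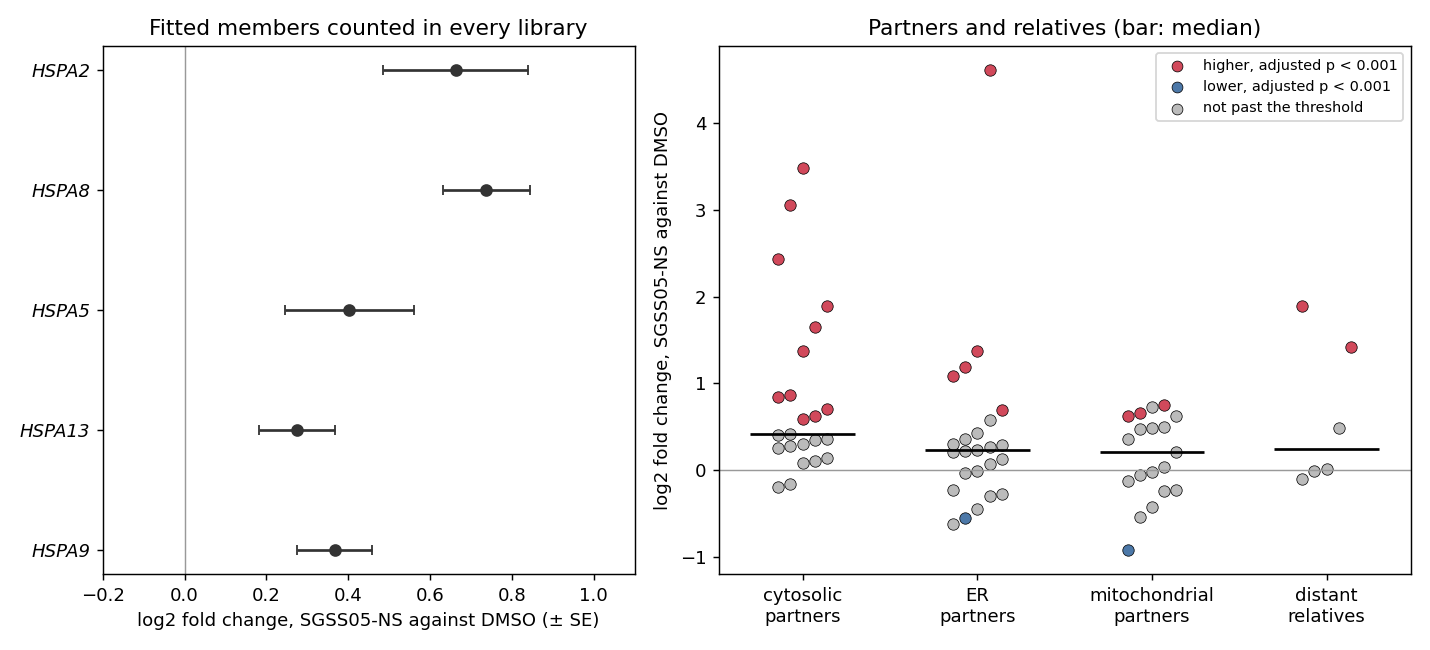
Left, log2 fold change of SGSS05-NS against DMSO (x axis, bars of 1 SE) for the 5 fitted members with fragments in every library, from 0.28 for HSPA13 to 0.74 for HSPA8; HSPA6 at 13.68 and HSPA7 at 8.63 lie off this scale and are not drawn. Right, log2 fold change (y axis) of each tested partner or distant relative, 1 point per gene, red or blue where past an adjusted p of 0.001 and grey where not, with a bar at each list's median; DDIT3 at 4.61 is the highest point and CLPB at -0.92 the lowest.

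Of the 10 members, 7 had enough fragments for the fit across all genes, HSPA6 and HSPA7 only through the treated libraries. In 9 of the 10 members the libraries of the groups did not overlap, each higher with SGSS05-NS. Such separation was common, with 37.8% of the 16468 genes tested higher and 36.9% lower in both SGSS05-NS libraries than in both DMSO libraries. HSPA1A, HSPA1B and HSPA1L are among the 9 but had too few fragments to be among the genes tested. The members were chosen with this contrast known, so nothing is read from their count. The log2 fold changes of HSPA2, HSPA8, HSPA5, HSPA13 and HSPA9 stayed above 0 without each library in turn.

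Together the 10 genes held 0.268% and 0.263% of gene fragments with DMSO and 0.441% and 0.482% with SGSS05-NS. Their summed level was 2684 CPM with DMSO and 4578 CPM with SGSS05-NS, a difference of 1894 CPM. HSPA8 made up 72.4% of that difference and HSPA6 18%, followed by HSPA9 with 5.10%, HSPA5 with 2.84% and HSPA13 with 1.37%. The gene with the largest fold, HSPA6, was not the largest contributor in fragments. HSPA8 held 78.2% and 74.9% of the family's fragments with DMSO and 75.1% and 74.7% with SGSS05-NS, and HSPA6 went from under 0.01% to 6.59% and 8.18%.

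**Figure D3:**
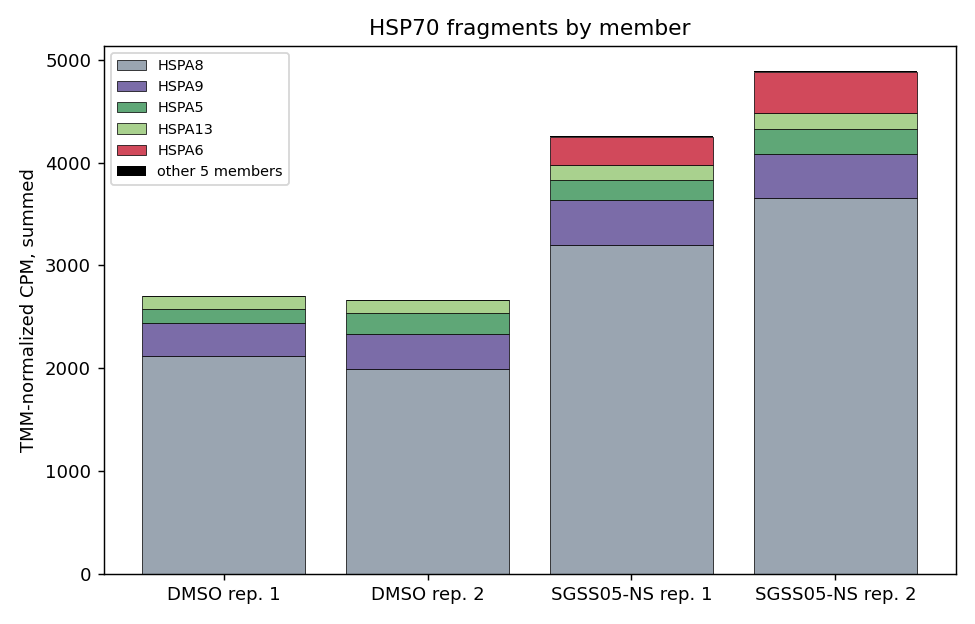
CPM summed over the HSP70 genes (y axis) in each of the 4 libraries (x axis), with 1 colour per member and the 5 lowest members joined in black. HSPA8 is the largest block in every library, and the HSPA6 block is visible with SGSS05-NS, where it holds 6.59% and 8.18% of the family's fragments.

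Levels between genes were compared as CPM per kilobase of transcript. With DMSO the order was HSPA8 at 908 ± 37.1, HSPA9 at 75.8 ± 1.92, HSPA5 at 42.7 ± 11.6, HSPA13 at 31.2 ± 0.368 and HSPA2 at 1.80 ± 0.213 (SD, n = 2), with the other 5 genes near 0. With SGSS05-NS it was HSPA8 at 1513 ± 141, HSPA6 at 145 ± 35.7, HSPA9 at 97.7 ± 0.130, HSPA5 at 56.4 ± 8.41, HSPA13 at 37.8 ± 1.96, HSPA2 at 2.85 ± 0.105 and HSPA7 at 1.08 ± 0.309. HSPA6 entered the order in second place, and the other expressed members kept theirs. With DMSO, HSPA5 and HSPA13 differed by less than the SD of HSPA5. With SGSS05-NS the libraries of neighbours in the order stood apart down to HSPA7, and those of HSPA1A, HSPA1B and HSPA1L, at 0.251, 0.110 and 0.0557, overlapped.

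Fragments that map to several places are left out of the counts, so near-identical copies can be counted too low. The coding sequences of HSPA1A and HSPA1B were identical at 1922 of 1926 positions (99.8%), with 1709 in 1 unbroken run. HSPA6 and HSPA7 were identical at 98.2% of aligned positions, with 27 mismatches and 7 gap columns. Both stretches below are 60 bases long and are shown because they hold differences, in capitals, that let a read be placed. They lie at coding bases 484 to 543 of HSPA6 and 1846 to 1905 of HSPA1A.
HSPA6: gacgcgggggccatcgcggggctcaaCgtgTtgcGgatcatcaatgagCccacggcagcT
HSPA7: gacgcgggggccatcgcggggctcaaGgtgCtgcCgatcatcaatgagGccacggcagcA
HSPA1A: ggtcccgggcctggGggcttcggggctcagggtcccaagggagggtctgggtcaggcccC
HSPA1B: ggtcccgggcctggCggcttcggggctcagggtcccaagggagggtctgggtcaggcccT

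Other pairs were further apart, at 80.4% for HSPA6 and HSPA1A, 73.6% for HSPA1A and HSPA8, 61.4% for HSPA8 and HSPA5, 54.1% for HSPA8 and HSPA9 and 41.0% for HSPA8 and HSPA13. Of all windows of 100 bases along each transcript, an exact copy elsewhere in GRCh37 was found for 72.4% in HSPA1A, 68.9% in HSPA1B, 33.9% in HSPA6 and 34.4% in HSPA7. The share was 3.74% in HSPA8, 2.28% in HSPA5 and 0.139% in HSPA9, where the copies were processed pseudogenes, and 0 in HSPA1L, HSPA2 and HSPA13. Thus 635 windows of HSPA1A, 752 of HSPA1B and 1491 of HSPA6 were unique.

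Per 1000 unique windows, a scale chosen after the counts were seen, HSPA6 was at 189 and 268 CPM with SGSS05-NS, HSPA1A at 0.426 and 1.47 and HSPA1B at 0.0599 and 0.678. The gap between HSPA6 and the HSPA1A and HSPA1B pair remained on this scale. The window is shorter than the reads that the methods give, and a fragment can be placed by either of its 2 reads, so the shares with an exact copy are not the shares of fragments that could not be placed. Summing HSPA6 and HSPA7 before the fit gave a log2 fold change of 13.69, against 13.68 for HSPA6 alone. Fragments that mapped to several places were 14.9% and 15.4% of all fragments with DMSO and 14.4% and 14.3% with SGSS05-NS, and how many came from HSPA1A and HSPA1B was not tested.

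The kit keeps the strand, and the counts above are those of the strand opposite the first read. Counted without regard to strand, HSPA6 had 1, 0, 6245 and 9418 fragments and HSPA8 had 53098, 46666, 71107 and 85956, in the order of DMSO and then SGSS05-NS replicates. The strand choice moved these members by under 1%. On the other strand stood 0.109% of the HSPA6 fragments, 0.0861% of those of HSPA8, 0.176% of HSPA5, 0.219% of HSPA13 and 0.142% of HSPA9, where whole libraries had 4.64% to 5.05%. HSPA1A was the exception. In SGSS05-NS replicate 2 it had 22 fragments by strand and 10 without strand, and HSPA1L had 12 on the other strand in that library, the same number as the difference. The gene models of GENCODE 44 do not overlap there, and the models the authors counted with were not used here.

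Genes within 50 kb were compared as neighbours. Around HSPA6 and HSPA7 lie 8 annotated genes, among them the Fc receptor genes FCGR2A, FCGR3A, FCGR2C and FCGR3B, and 7 of them had 0 fragments in all 4 libraries while FCGR2A had 1 in SGSS05-NS replicate 2. Around HSPA1A, HSPA1B and HSPA1L lie 15 other genes, of which 5 were tested. NEU1, the lysosomal sialidase, rose by 1.34 ± 0.14 (SE) in log2 fold change (edgeR adjusted p = 1.4e-05), and the host RNA SNHG32 rose by 0.74 ± 0.10 (edgeR adjusted p = 8.9e-05). VARS1, LSM2 and EHMT2 did not pass the threshold, at -0.29, -0.26 and 0.08 (edgeR adjusted p of 0.022, 0.14 and 0.50). The tested neighbours on both sides of HSPA1A and HSPA1B had 229 to 4482 fragments per library.

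The co-chaperones and regulators of the cytosolic members were tested as a list of 24 genes, of which 23 had enough fragments. This list and the lists below were chosen with earlier results of these data known, so their counts are not independent of that choice. In the edgeR quasi-likelihood test 11 rose and 0 fell, with a median log2 fold change of 0.42. Over all 16468 genes tested, 6.37% rose and 8.14% fell, with a median of 0.01. At an unadjusted p under 0.05, 17 of the list were higher and 0 lower, beside 4361 higher and 4446 lower over all genes. In every alternative, DESeq2 and limma voom included, none fell and 10 to 17 rose. BAG3, a nucleotide exchange factor that directs clients to autophagy, rose by 3.06 (edgeR adjusted p = 2.1e-08) and HSPH1, an HSP110 exchange factor, by 1.89 (edgeR adjusted p = 1.3e-07). DNAJB1, the main inducible HSP40, rose by 3.48 (edgeR adjusted p = 2.1e-07), from 1611 and 1217 fragments to 10939 and 18862, and DNAJB4 by 2.43 (edgeR adjusted p = 2.2e-07). The transcription factors HSF1 and HSF2 did not pass, at 0.35 and 0.28 (edgeR adjusted p of 0.018 and 0.044).

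The ER list held 24 genes, all tested, of which 5 rose and 1 fell, beside 6.37% and 8.14% over all genes, with a median of 0.23. At an unadjusted p under 0.05, 11 were higher and 5 lower. DDIT3 (CHOP), a stress transcription factor, rose by 4.61 (edgeR adjusted p = 5.2e-09), from 69 and 66 fragments to 1300 and 1827. XBP1 rose by 1.37 (edgeR adjusted p = 1.8e-06), HERPUD1, of ER-associated degradation, by 1.09 (edgeR adjusted p = 1.5e-05), the ER co-chaperone DNAJB9 by 1.19 (edgeR adjusted p = 3.8e-05) and ATF4 by 0.69 (edgeR adjusted p = 0.00017). ATF6, a sensor of ER stress, fell by 0.55 (edgeR adjusted p = 0.00078), a call that was lost without DMSO replicate 2, without SGSS05-NS replicate 1 and with scaling by library size only. The ER HSP90 gene HSP90B1 did not pass, at -0.03 (edgeR adjusted p = 0.81).

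Of 19 mitochondrial partners, all tested, 3 rose and 1 fell, beside 6.37% and 8.14% over all genes, with a median of 0.21. At an unadjusted p under 0.05, 9 were higher and 5 lower. HSPD1 and HSPE1, the HSP60 and HSP10 subunits of the matrix chaperonin, rose by 0.76 (edgeR adjusted p = 7.4e-05) and 0.63 (edgeR adjusted p = 0.00036). TIMM44, which tethers HSPA9 to the import channel, rose by 0.66 (edgeR adjusted p = 0.00033). CLPB, a disaggregase, fell by 0.92 (edgeR adjusted p = 1.1e-05). ATF5 did not pass, at 0.73 (edgeR adjusted p = 0.0014). It did pass by the likelihood ratio test of edgeR, with no filter and with a replicate block, but not by DESeq2 or limma voom. Leaving out SGSS05-NS replicate 1 raised the number that rose from 3 to 5.

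The distant relatives, among them the HSP110 group, were 7 genes, of which 6 were tested, 2 rose and 0 fell, beside 6.37% and 8.14% over all genes, with a median of 0.25. At an unadjusted p under 0.05, 3 were higher and 0 lower, and 0 fell in every alternative, DESeq2 and limma voom included. HSPH1 rose as above, and HSPA4L rose by 1.42 (edgeR adjusted p = 7.4e-06). HSPA14 was at 0.49 (edgeR adjusted p = 0.0014), HSPA12A at -0.10, HSPA4 at 0.01 and the ER member HYOU1 at -0.01 (edgeR adjusted p = 0.96), none past the threshold. HSPA14 did pass by DESeq2, by the likelihood ratio test of edgeR, with no filter and with a replicate block, but not by limma voom. HSPA12B had 8 or 9 fragments per library and was not tested.

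Profiles were compared by Euclidean distance between centred log2 CPM over the 4 libraries, with 0.5 added to each CPM. The distance is a description that says nothing of shared control. For HSPA6 and HSPA7, near 0 with DMSO, the added 0.5 shrinks the difference between groups, so their distances depend on it. The genes nearest to HSPA6 were GDF15 at 2.97, HMOX1 at 3.59 and FOS at 4.003, all still far from it. GDF15 is a stress cytokine and HMOX1 the inducible heme oxygenase. The nearest to HSPA7 was KRTAP5-AS1 at 0.171, although its log2 fold change was 2.59, against 8.63 for HSPA7. The nearest to HSPA2 was ENSG00000240207 (an identifier with no symbol) at 0.0135, to HSPA8 EIF5A2 at 0.0122, to HSPA9 UNC119 at 0.0116, to HSPA13 ORMDL1 at 0.00722 and to HSPA5 LTB4R at 0.0532.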

How the data were processed

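RNA-seq was made from SY5Y cells, 2 libraries per group. Per the labels, the authors used Trimmomatic 0.30, STAR 2.4.2a on hg19 and edgeR 3.10.5. The deposited files hold raw STAR counts of fragments per gene, unstranded and by strand, not normalized. Summary lines (12.3% to 16.1% of fragments outside annotated exons of the counted strand, 14.3% to 15.4% mapping to several places) entered neither library sizes nor tests. The labels name a TruSeq RNA kit and the paper's methods a stranded total RNA kit. In R 4.3.3, edgeR 4.0.16 compared SGSS05-NS with DMSO on the reverse-strand counts by its quasi-likelihood test, after filterByExpr and TMM, with Benjamini-Hochberg adjustment over 16468 genes and a threshold of 0.001. The fit was tried on simulated data with 2-fold and 4-fold changes only. That trial does not cover genes near 0 with DMSO, such as HSPA6 and HSPA7. CPM use TMM library sizes. Each SE is the absolute log2 fold change divided by the square root of the test's F statistic, not a separate estimate. Ratios of genes with 1 or 2 DMSO counts have exact binomial 95% intervals. These intervals cover counting error only. The floor of 3 counts stands in for a DMSO group with 0 fragments and leaves out counting error in the treated libraries. Symbols and positions came from GENCODE 44 on GRCh37, promoters from RefSeq. Exact copies were found with BLAST+ and aligned with Biopython. The members and lists were chosen with earlier results of these data known. Named were all members and distant relatives, the 4 genes of each partner list with the smallest p-values, 7 transcription factors, neighbours within 50 kb and the 3 nearest profiles, of which the text gives all for HSPA6 and the nearest for the others. HSP90B1, CD14 and EPCAM were added after their values were seen. Alternatives were voom in limma 3.58.1, DESeq2 1.42.0, the likelihood ratio test of edgeR, other scalings, filters, threshold, strand, a replicate block, summed copies and each library left out.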

Additional observations from a re-analysis of the deposited data

Results flagged for a closer look

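The signal on the other strand, which the comparisons do not use, was above every DMSO library for 3 members. In the 2 SGSS05-NS libraries together it was 17 fragments for HSPA6, 132 for HSPA8 and 20 for HSPA5. As a share of the gene's own fragments, HSPA8 was not higher, at 0.0904% and 0.0879% with DMSO and 0.0816% and 0.0861% with SGSS05-NS. HSPA5 was at 0.147% and 0.150% with DMSO and 0.227% and 0.174% with SGSS05-NS, and HSPA6 at 0.112% and 0.106% with SGSS05-NS. The share of all fragments outside annotated exons of the counted strand was also higher in each SGSS05-NS library than in each DMSO library. It was 15.3% in the lower of the treated libraries, and it includes fragments in exons but on the other strand.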

How the results depend on the processing

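The log2 fold changes of the 7 fitted members kept their sign in every alternative that gave a value. HSPA6 and HSPA7, which have none with at least 10 counts in every library, rest on 1 and 0 DMSO fragments and were at 13.19 and 6.65 by limma voom. Over all genes, 1049 rose and 1341 fell, against 2022 and 2267 by edgeR's likelihood ratio test, 2034 and 2570 with no filter, and 3728 and 3903 at a threshold of 0.05. The labels share replicate numbers, but the correlation of same-numbered deviations was 0.063 over 14630 genes, so the numbers are not taken to pair the libraries. With a replicate block 1759 genes rose, and 5 mitochondrial partners. At 0.05, 17 cytosolic partners rose, 9 ER partners rose and 4 fell, and 8 mitochondrial partners rose and 3 fell. The likelihood ratio test and no filter each gave 6 risen mitochondrial partners. ER partners that fell were 0 by library size and 2 with no filter. Without each library, 0 to 1 ER partners fell and 3 to 5 mitochondrial partners rose. Values near 0 changed sign. HSPA4 was at -0.0167 with no filter, at -0.0284 without regard to strand and between -0.0352 and 0.0287 without each library. HYOU1 was at 0.0267 by library size, at 0.00597 with at least 10 counts and between -0.0434 and 0.0239 without each library. HSPA12A was between -0.246 and 0.0429 without each library. The cause was not tested. With 2 libraries per group, small differences such as that of HSPA5 are not settled.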
